A study of Mus musculus with 9 samples.

Results

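The genes described here are the mouse cytochromes P450 of families 2 and 3, without Cyp2e1, Cyp2a5 and Cyp3a11. They were taken by symbol from a raw count table of 28956 gene symbols: a symbol of Cyp2 or Cyp3 with a subfamily letter and a gene number was accepted, and it had to reach 10 counts in at least 3 of 9 libraries. Of 48 matching symbols, 44 met the count rule and all 44 could be tested. Cyp2b13, Cyp2b23, Cyp2ab1 and Cyp2c65 did not, with at most 1, 6, 6 and 4 counts in any library. No member met the rule through 1 group only. The 44 genes fall into 12 subfamilies, of which Cyp2c (13 genes), Cyp2d (8) and Cyp3a (8) were the largest.

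RNA-seq was made from pieces of whole liver of C57BL6J mice aged 8 weeks, although hepatocytes are given as the cell type in the labels. Every mouse received APAP (acetaminophen) at 300 mg/kg intraperitoneally, and the title of the series places the measurement at 24 h. The APAP group received nothing further that the labels name, while the APAP_MSC and APAP_HDF groups received 500000 MSC or HDF intravenously in saline 90 min after APAP. The labels do not spell out MSC or HDF, and no untreated liver and no liver given saline alone was analysed here. Each group had 3 libraries, numbered 1 to 3 here by column order. The labels do not say that these came from separate mice, so each p-value rests on the spread among these libraries only, which may be technical.

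Cytochromes P450 are haem enzymes of the endoplasmic reticulum that insert 1 atom of oxygen into their substrates, with electrons passed on by P450 reductase and cytochrome b5. In liver, families 2 and 3 oxidise drugs, steroids, bile acids and fatty acids, and many of their genes lie in tandem clusters of closely related copies. Several answer to the receptors CAR and PXR, which sense foreign compounds, and several differ between male and female mice under the control of growth hormone. Some copies are so alike that short reads cannot always be assigned to 1 of them.

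Coding sequences were compared to find such copies. Counting from the start codon in the GENCODE M21 transcripts, Cyp3a41a and Cyp3a41b differ at 2 of 1512 bases, Cyp3a41b differs from the abundant Cyp3a11 at 75, and Cyp2c50 differs from Cyp2c54 at 70 of 1470. Windows of 90 bases of these 3 pairs are shown because the counts of these genes depend on such differences. Each window was chosen as the one with the most differing bases in its pair, so it is not typical of the whole sequence. Capitals mark bases that differ within the pair.

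Cyp3a41a, bases 31 to 120: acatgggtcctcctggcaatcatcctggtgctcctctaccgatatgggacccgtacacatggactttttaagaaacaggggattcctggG
Cyp3a41b, bases 31 to 120: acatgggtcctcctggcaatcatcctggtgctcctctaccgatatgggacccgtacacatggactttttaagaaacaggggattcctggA
Cyp3a11, bases 4 to 93: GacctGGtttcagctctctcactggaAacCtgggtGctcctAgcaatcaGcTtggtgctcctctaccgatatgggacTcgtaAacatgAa
Cyp3a41b, bases 4 to 93: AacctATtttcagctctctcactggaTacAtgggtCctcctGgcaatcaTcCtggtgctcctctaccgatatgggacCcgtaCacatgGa
Cyp2c50, bases 817 to 906: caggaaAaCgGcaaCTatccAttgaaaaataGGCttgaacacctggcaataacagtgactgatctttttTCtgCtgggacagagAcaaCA
Cyp2c54, bases 817 to 906: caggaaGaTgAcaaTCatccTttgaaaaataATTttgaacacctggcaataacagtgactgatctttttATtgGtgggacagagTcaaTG

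The Cyp3a41 window holds 1 differing base, the Cyp3a11 window 12 and the Cyp2c50 window 15. At a coding identity of at least 95%, the members formed the groups Cyp2a12 with Cyp2a22, Cyp2a4 with the excluded Cyp2a5, Cyp2c37 with Cyp2c50 and Cyp2c54, Cyp2c67 with Cyp2c68 and Cyp2c69, Cyp3a41a with Cyp3a41b, Cyp3a44 and the excluded Cyp3a11, and Cyp3a25 with Cyp3a59. Values of single genes in these groups are uncertain, because how reads were split between copies is not given in the sources used here. The identity threshold does not find every gene that shares reads. Of stretches of 75 bases in the coding sequence, Cyp2c40 shared 61.6% with Cyp2c67, Cyp2c68 or Cyp2c69, which themselves shared 38.2, 32.2 and 48.5% with other genes. Cyp2d10, Cyp2d11 and Cyp2d9 shared 29.2, 22.7 and 18.2% with other genes, mostly of Cyp2d, more than the 16.3% of Cyp2a12 and Cyp2a22. Cyp3a41a and Cyp3a41b shared 95.3 and 89.6%, and Cyp3a11 5.77%. The values of Cyp2c40, Cyp2d9, Cyp2d10 and Cyp2d11 are therefore uncertain as well. Whether counting used strand is not given either.

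Promoters of 300 bases, from 250 before to 50 after the annotated start, were found for 37 of the 44 members in RefSeq on GRCm38.p6, which is not the build of the counts. They are shown for 4 genes that differ between groups in the sections that follow, which are not the 4 with the largest differences. Cyp2c50 and Cyp2c55 differed more than Cyp2c69 and Cyp2c70 in both comparisons with APAP_MSC and are not shown. Capitals mark the motifs CAAAGTCCA (a form of the HNF4A element), AGGTCA (the core hexamer of nuclear receptors) and TATAAA (the letters of the TATA box). They were searched on both strands and at any position in the window.

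Cyp2c70, chr19:40187237-40187536, minus strand: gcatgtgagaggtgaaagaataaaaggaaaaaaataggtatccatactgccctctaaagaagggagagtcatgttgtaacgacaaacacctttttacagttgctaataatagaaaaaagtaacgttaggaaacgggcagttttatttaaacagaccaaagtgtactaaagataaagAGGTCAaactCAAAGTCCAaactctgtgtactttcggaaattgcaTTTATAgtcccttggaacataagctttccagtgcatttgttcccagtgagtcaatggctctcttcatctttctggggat
Cyp2c69, chr19:39886720-39887019, minus strand: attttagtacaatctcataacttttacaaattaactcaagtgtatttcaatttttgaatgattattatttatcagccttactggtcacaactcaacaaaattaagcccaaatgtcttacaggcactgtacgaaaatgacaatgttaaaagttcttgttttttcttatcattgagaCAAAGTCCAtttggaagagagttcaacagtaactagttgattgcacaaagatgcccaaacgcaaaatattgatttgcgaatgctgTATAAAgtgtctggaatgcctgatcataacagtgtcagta
Cyp3a16, chr5:145469674-145469973, minus strand: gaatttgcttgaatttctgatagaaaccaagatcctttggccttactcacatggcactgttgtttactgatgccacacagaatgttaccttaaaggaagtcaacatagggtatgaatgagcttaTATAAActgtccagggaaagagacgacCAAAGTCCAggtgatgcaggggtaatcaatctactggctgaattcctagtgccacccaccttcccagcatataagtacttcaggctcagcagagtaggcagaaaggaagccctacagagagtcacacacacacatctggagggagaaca
Cyp2c29, chr19:39286835-39287134, plus strand: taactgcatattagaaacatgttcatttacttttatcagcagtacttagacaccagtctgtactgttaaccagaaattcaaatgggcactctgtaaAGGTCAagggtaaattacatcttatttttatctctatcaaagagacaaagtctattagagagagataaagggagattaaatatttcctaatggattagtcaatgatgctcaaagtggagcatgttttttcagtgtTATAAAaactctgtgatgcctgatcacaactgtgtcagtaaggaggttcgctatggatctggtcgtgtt

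CAAAGTCCA was found in 8 of 37 member promoters (21.6%) and in 0.475% of 32851 promoters of the same length over all genes. For this and the other motifs, members were counted by the first listed start of each gene and the background by every listed start. The 8 were Cyp2c40, Cyp2c67, Cyp2c68, Cyp2c69, Cyp2c70, Cyp3a16, Cyp3a41a and Cyp3a41b, several of which are copies of each other and so share their sequence. Of the members called higher in APAP_MSC than in APAP, Cyp2c69, Cyp2c70, Cyp3a16 and Cyp3a41b hold it. Cyp2c50, Cyp2c55, Cyp2d40, Cyp2f2, Cyp2j5 and Cyp3a44 do not, and for Cyp2c23, Cyp2c54 and Cyp2u1 no promoter was found. TATAAA was found in 20 of the 37 (54.1%, against 13.6% of all), and AGGTCA in 13 (35.1%, against 16.3%). CACGTG, the E-box, was found in 1 (2.7%, against 7.15%). TTGCGCAA, a C/EBP site, and the palindromic HNF1 site were found in none of the member promoters and in 0.183% and 0.00913% of all. In Cyp2c70 the AGGTCA and CAAAGTCCA matches start 74 and 64 bases before the start site, on the same strand and without overlap. A match describes letters in this window and is not evidence of binding.

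Library totals ran from 53267231 to 63175573 counts. A count of 0 allows a level of up to 0.0453 to 0.0567 CPM (counts scaled to library size with TMM factors), which is 3 counts and covers counting error only. Hepatocyte markers summed to 100743 to 117193 CPM in APAP, 104371 to 118905 in APAP_MSC and 92125 to 122935 in APAP_HDF, so transcripts of this cell type dominated among the markers in all libraries. Infiltrating macrophage markers summed to 52.3 to 68.9 CPM in APAP and 55.7 to 65.4 in APAP_HDF but 18.9 to 28.0 in APAP_MSC, where 4 of 6 fell against APAP. Neutrophil markers summed to 5.41 to 7.44, 1.88 to 5.32 and 1.30 to 1.96 CPM in APAP, APAP_HDF and APAP_MSC, with 3 of 4 tested lower in APAP_MSC than in APAP and Ly6g at 0 in all APAP_HDF libraries. Sinusoidal endothelial markers summed to 119 to 180, 116 to 161 and 82.9 to 94.1 CPM, with 3 of 5 lower, and stellate cell markers to 167 to 223, 137 to 178 and 130 to 152 CPM, with 1 of 5 lower. The sums of these 4 lists were lower in every APAP_MSC library than in any APAP library. Kupffer cell markers summed to 109 to 270.2, 91.6 to 160.3 and 61.6 to 137 CPM in APAP, APAP_MSC and APAP_HDF, cholangiocyte markers to 94.8 to 149, 116 to 131 and 99.4 to 104 CPM, and red cell markers to 49.6 to 148, 111 to 189 and 59.1 to 76.6 CPM. Of 3 red cell markers 1 was higher in APAP_MSC than in APAP, Alas2 (edgeR adjusted p = 0.0349). Against APAP_HDF, 3 of 5 cholangiocyte, 1 of 3 red cell and 1 of 8 hepatocyte markers were called higher in APAP_MSC, and 2 of 6 infiltrating macrophage, 1 of 4 neutrophil and 2 of 5 endothelial markers lower. These values stand beside every result given here for APAP_MSC, and their part in those results was not tested. In bulk tissue, fewer cells of a type and less RNA per cell cannot be told apart. Ddx3y, on the Y chromosome, was at 49.2 to 61.6 CPM and Xist at 0.0905 to 0.491 CPM in the 9 libraries.

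One library stood apart within its group. APAP_HDF library 1 had the lowest value of its group in 34 of 44 members, against 39.2% of all genes, and its members lay a median of -0.72 (log2) from the other 2 libraries of the group. APAP library 1 was lowest in 24 of 44 members, against 37.5% of all genes, with a median difference of -0.26. APAP_MSC library 1 was lowest in 23 of 44, against 33.6% of all genes, with a smaller median difference of -0.12. The members spread more between libraries than genes at large: for APAP, APAP_MSC and APAP_HDF, the median SD of log2 level over members was 0.37, 0.26 and 0.53, and over all tested genes 0.23, 0.17 and 0.22. Where leaving out these libraries changed the call of a member, the adjusted p without them is given, alone or within a range. Leaving out library 1 of both APAP and APAP_HDF was chosen after seeing the data. Removing low libraries narrows the spread within a group, so a call gained in that fit is not independent support.

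**Figure D1:**
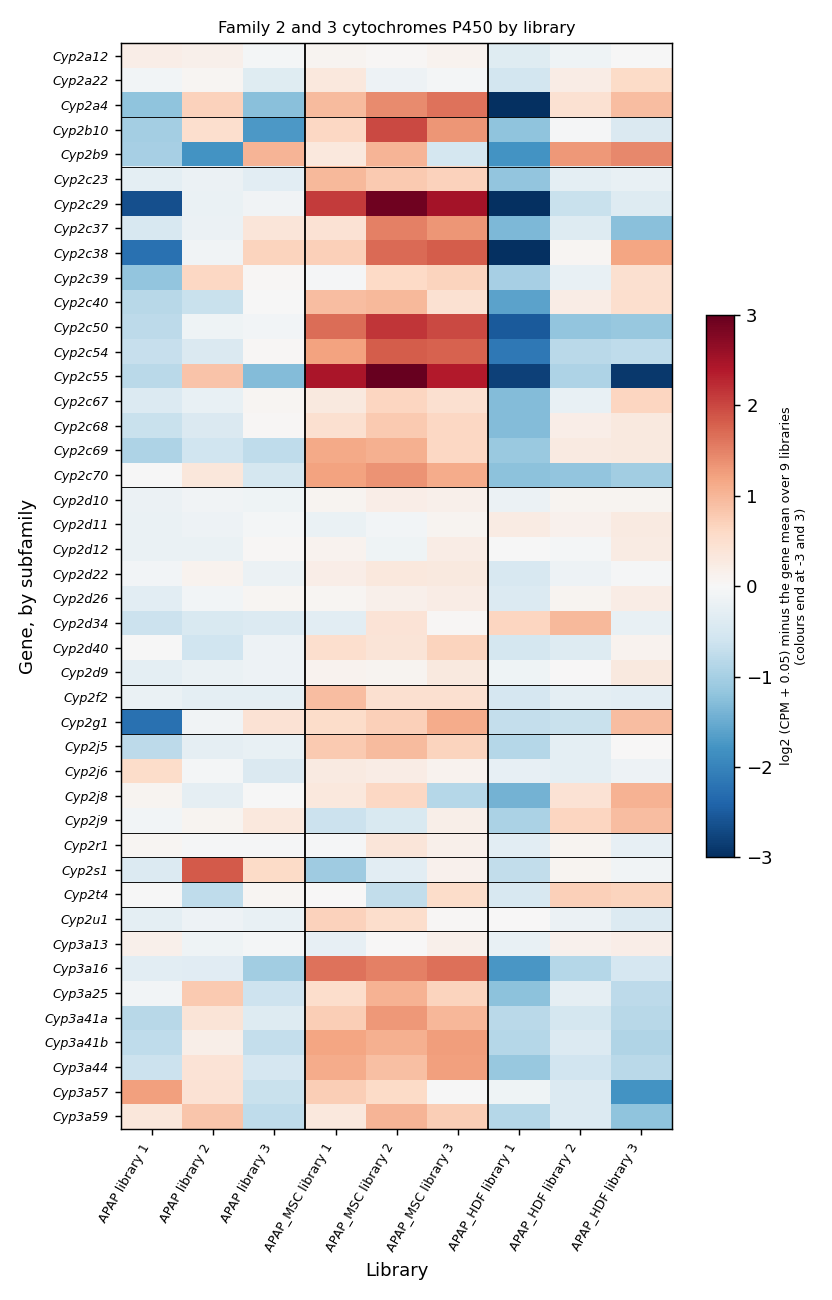
Level of each of the 44 genes (vertical axis, by subfamily) in each of the 9 libraries (horizontal axis), as log2 (CPM + 0.05) minus the mean of that gene, with colours ending at -3 and 3. The APAP_MSC columns are redder through most of Cyp2c and Cyp3a, while APAP_HDF library 1 was the lowest of its group in 34 of 44 genes.

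Added over all 44 genes, the level was 4272, 4887 and 4575 CPM in the 3 APAP libraries, 7061, 8012 and 7498 in APAP_MSC, and 3464, 4611 and 5057 in APAP_HDF. All 3 APAP_MSC sums lay above all others, and the APAP and APAP_HDF sums overlapped. The make-up of the sum differed as well. Cyp2d genes held 47.8% ± 2.5 (SD, n = 3) of it in APAP and 54.8% ± 1.9 in APAP_HDF but 35.8% ± 2.3 in APAP_MSC, while Cyp2c genes held 14.1% ± 2.1, 10.7% ± 3.3 and 31.9% ± 3.5.

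**Figure D2:**
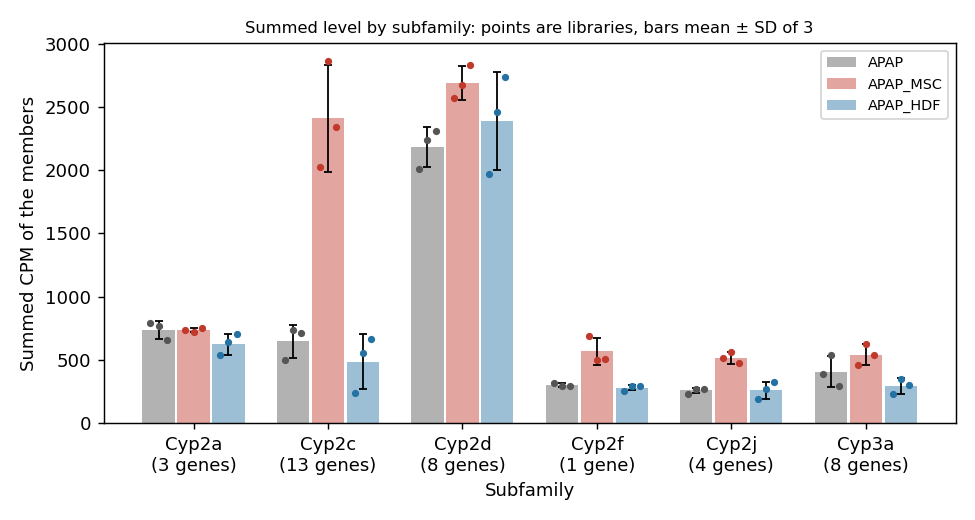
Summed CPM (vertical axis) of the members of 6 subfamilies (horizontal axis) in APAP, APAP_MSC and APAP_HDF, with a point for each library and bars at the mean with SD of 3. The Cyp2c sum was 2027 to 2860 CPM in APAP_MSC and 242 to 737 in the other libraries, whereas the Cyp2a sums of APAP and APAP_MSC overlap.

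The first comparison, APAP_MSC against APAP, asks how livers given MSC after APAP differed from livers given APAP alone. Of 44 members, 13 rose, none fell and 31 did not pass (edgeR quasi-likelihood test, Benjamini-Hochberg adjusted p under 0.05 over 17582 genes). Among all genes tested, 2.83% rose and 3.54% fell, 6.38% in all. The estimate was above 0 in 39 of 44 members, with a median of 0.66 (log2) against -0.01 over all genes. The 3 APAP_MSC libraries all lay above the 3 APAP libraries in 28 members and all below in none, against 13.7% and 14.7% of all genes. The genes that rose were 6 of 13 in Cyp2c, 3 of 8 in Cyp3a, 1 of 8 in Cyp2d, 1 of 4 in Cyp2j, and the single genes Cyp2f2 and Cyp2u1. Close copies, which may share reads, are counted as separate members. Among the 13, Cyp2c50 and Cyp2c54 are copies of each other, as are Cyp3a41b and Cyp3a44. Cyp2c69 was not called with its copies summed (edgeR adjusted p = 0.221). The count was 7 without APAP library 1, 6, 3 and 8 without APAP_MSC libraries 1, 2 and 3, and 17 without APAP_HDF library 1, and it was 13 without library 1 of both APAP and APAP_HDF, of which 10 were among the 13. The genes called in every fit that left out 1 library were Cyp2c70, Cyp2f2 and Cyp3a16.

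The second comparison, APAP_HDF against APAP, sets the other injected cell type against APAP alone. The edgeR test called 0 of 44 members and 0% of all genes, with the smallest adjusted p among the members at 0.438. At an unadjusted p under 0.05 there were 10 members, against 8.78% of all genes, and the median over members was -0.02. DESeq2 called 2 members lower, Cyp2c50 and Cyp2c70, among 83 genes in all, and limma-voom called none of the members. Without APAP library 3, edgeR called 1 member lower, Cyp2c70, among 32 genes. The groups did not overlap in 3 members higher in APAP_HDF (Cyp2d9, Cyp2d11 and Cyp2d34) and 3 lower (Cyp2c50, Cyp2c54 and Cyp2c70), against 5.66% and 6.08% of all genes. In each direction this share of the 44 members is near that of all genes.

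The third comparison, APAP_MSC against APAP_HDF, sets the 2 injected cell types against each other. Of 44 members, 18 were called higher in APAP_MSC and none lower, against 4.9% and 3.99% of all genes (8.89% in all). The median was 0.80, against -0.02 over all genes. The APAP_MSC libraries all lay above the APAP_HDF libraries in 26 members and all below in 1, Cyp2d11, against 16.8% and 16.4% of all genes (33.2% in all). Among the 18 called, Cyp2c37, Cyp2c50 and Cyp2c54 are close copies counted separately. So are Cyp3a25 and Cyp3a59, and Cyp3a41a, Cyp3a41b and Cyp3a44. The count was 12 and 11 without APAP_MSC libraries 1 and 2, and 12 higher with 1 lower without APAP_HDF library 1. Without library 1 of both APAP and APAP_HDF it was 13 higher and 1 lower, and all 13 were among the 18. The gene called lower was Cyp2j9 in both of these fits, at -1.04 ± 0.22 (log2, SE; edgeR adjusted p = 0.0276) and -1.04 ± 0.23 (0.0296), against -0.66 ± 0.42 (0.358) with all libraries. Of the 13 genes called against APAP, 12 (92.3%) were also called here, which is 66.7% of the 18, and both comparisons use the same 3 APAP_MSC libraries.

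**Figure D3:**
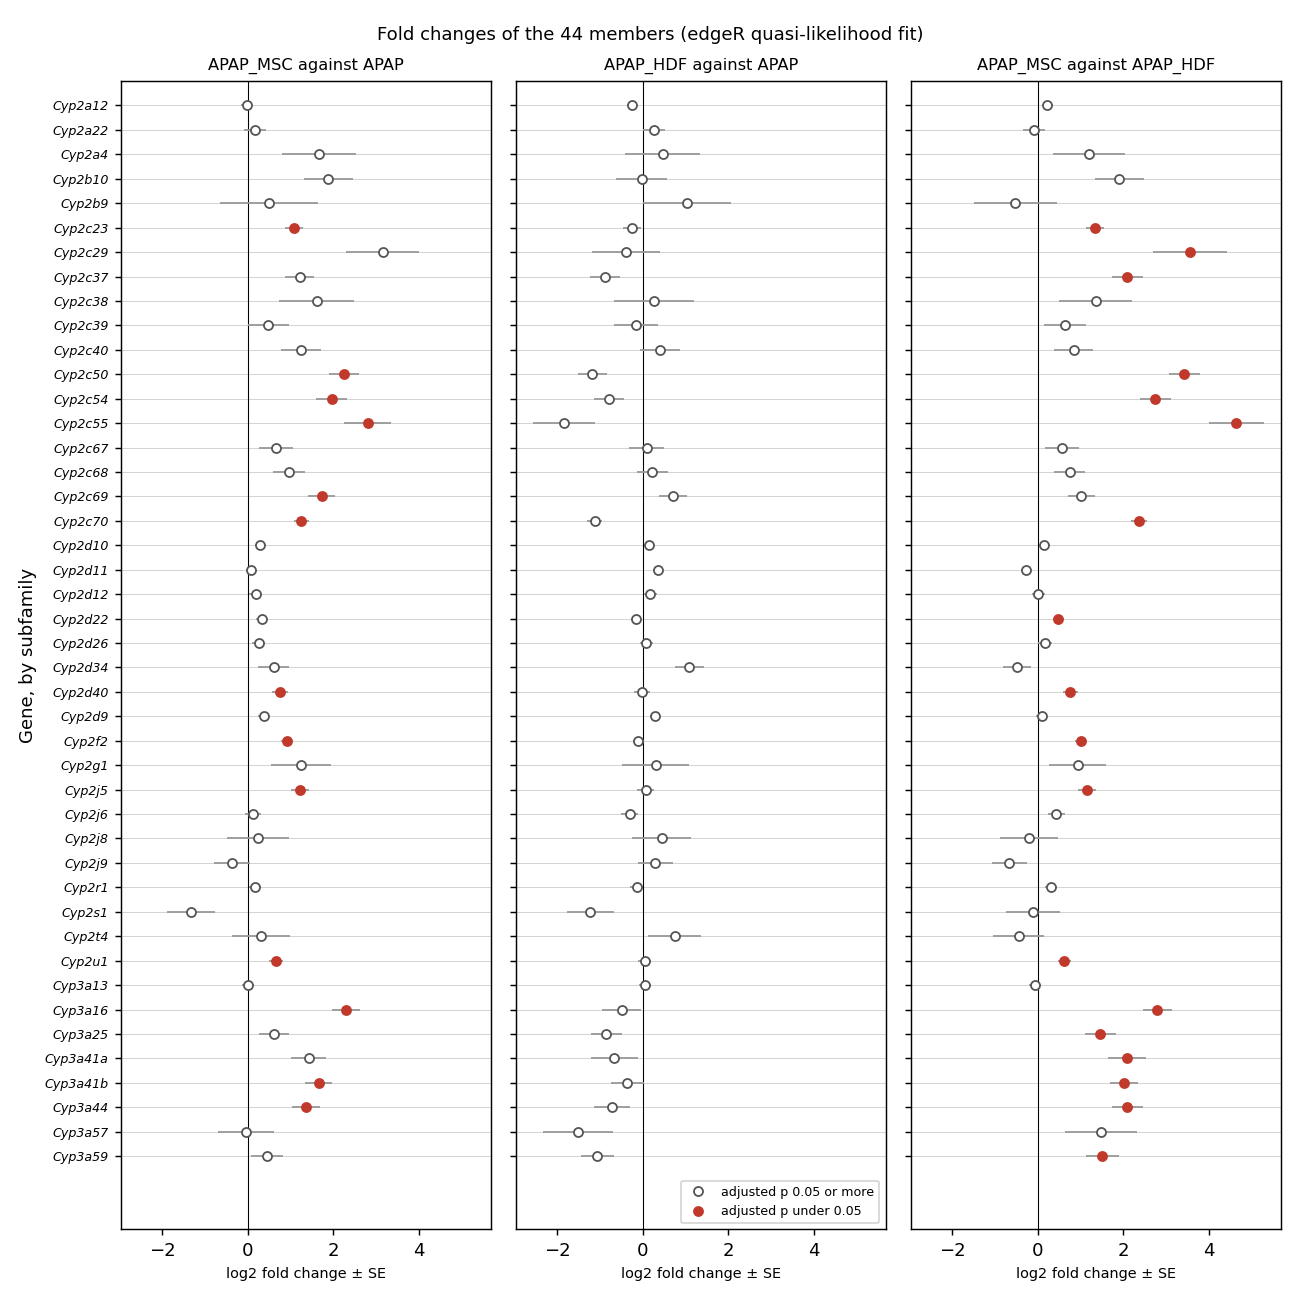
Fitted log2 fold change with its standard error (horizontal axis) of each of the 44 genes (vertical axis, by subfamily) in the 3 comparisons, with filled points where the edgeR adjusted p was under 0.05. Filled points number 13, 0 and 18, all to the right of 0.

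Cyp2c was the subfamily with the most genes that rose. Its summed level was 496, 737 and 709 CPM in APAP, 2027, 2860 and 2341 in APAP_MSC, and 242, 555 and 665 in APAP_HDF. The sum, tested as 1 gene, was higher in APAP_MSC than in APAP by 1.90 ± 0.33 (log2, SE; edgeR adjusted p = 0.0173) and higher than in APAP_HDF by 2.31 ± 0.34 (edgeR adjusted p = 0.00536). The first of these calls was lost without APAP library 1 (edgeR adjusted p = 0.0527) or APAP_MSC library 2 (0.0746). All 13 genes had estimates above 0 against both other groups, and 12 did not overlap with APAP. The exception was Cyp2c39, at 0.56 ± 0.33 CPM in APAP and 0.77 ± 0.21 in APAP_MSC (SD, n = 3).

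Cyp2c29, an arachidonic acid epoxygenase inducible through CAR, was the most abundant Cyp2c gene in APAP_MSC. It stood at 29.6, 159 and 170.0 CPM in APAP, 793, 1386 and 1033 in APAP_MSC, and 16.3, 117 and 139.8 in APAP_HDF. All 3 APAP_MSC libraries lay above the rest, and library 1 of both other groups was several times below its fellows. Against APAP the difference was 3.16 ± 0.85 (log2, SE) and missed the threshold (edgeR adjusted p = 0.0662), which it passed without APAP_HDF library 1 (0.0330). The same difference passed with DESeq2 (adjusted p = 0.00547), limma-voom (0.0448) and edgeR without robust moderation (0.0338). Against APAP_HDF it was called at 3.56 ± 0.87 (edgeR adjusted p = 0.0417), and this call was lost in 8 of the 9 fits without 1 library, with adjusted p from 0.0680 to 0.121, all but the fit without APAP library 1. With no filter on low counts this call was lost as well (edgeR adjusted p = 0.124). Without library 1 of both APAP and APAP_HDF, Cyp2c29 was called in both comparisons, at 2.71 ± 0.24 against APAP (edgeR adjusted p = 0.00173) and 3.06 ± 0.24 against APAP_HDF (0.00152). Both libraries held its lowest level in their group and were left out after seeing the data. The smaller standard errors follow from that choice and are not further support. Per kb of coding length its mean level was 81.3 ± 53.1 CPM in APAP and 728 ± 203 in APAP_MSC, the latter second only to Cyp2d26 among the members in that group.

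Cyp2c50, Cyp2c54 and Cyp2c37 are close copies that respond to activators of CAR and PXR. Cyp2c50 was at 45.7, 72.0 and 73.7 CPM in APAP, 253, 346 and 311 in APAP_MSC, and 13.7, 34.8 and 35.7 in APAP_HDF. Cyp2c54 was at 21.3, 25.4 and 35.0 CPM in APAP, 79.5, 122 and 117 in APAP_MSC, and 7.69, 19.6 and 20.1 in APAP_HDF. In both genes the 3 groups formed 3 separate ranges, with APAP_HDF lowest and APAP_MSC highest. Against APAP, Cyp2c50 rose by 2.25 ± 0.35 (log2, SE; edgeR adjusted p = 0.0140) and Cyp2c54 by 1.96 ± 0.36 (0.0198). Against APAP_HDF the differences were 3.43 ± 0.37 (edgeR adjusted p = 0.00185) and 2.75 ± 0.37 (0.00486). The call of Cyp2c50 against APAP was lost without APAP_MSC library 2 (edgeR adjusted p = 0.0556), and that of Cyp2c54 without APAP library 1 or 2 or APAP_MSC library 2 or 3 (0.0678, 0.0545, 0.0797 and 0.0560). With no filter on low counts, the call of Cyp2c54 against APAP was lost as well (edgeR adjusted p = 0.0565).

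Cyp2c37 was at 9.05, 11.2 and 16.2 CPM in APAP, 17.2, 35.8 and 31.8 in APAP_MSC, and 4.92, 9.60 and 5.23 in APAP_HDF. APAP_MSC lay above both other groups, by 1.21 ± 0.34 (log2, SE) against APAP, which was not called (edgeR adjusted p = 0.0701), and by 2.10 ± 0.36 against APAP_HDF, which was (0.0101). Without library 1 of both APAP and APAP_HDF the latter call was lost (edgeR adjusted p = 0.0515). The difference from APAP was called by DESeq2 (adjusted p = 0.00298) and by edgeR without robust moderation (0.0486), but not by limma-voom. The counts of the 3 copies did not keep 1 ratio across groups. Cyp2c54 counts were 35.3 to 47.5% of Cyp2c50 counts in APAP, 31.5 to 37.7% in APAP_MSC and 56.1 to 56.3% in APAP_HDF, and Cyp2c37 counts were 15.6 to 22.0%, 6.80 to 10.4% and 14.7 to 35.9%. Summed as 1 gene, the 3 copies rose against APAP by 2.08 ± 0.33 (edgeR adjusted p = 0.0142).

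Cyp2c55, which makes hydroxylated arachidonic acid and is inducible through CAR and PXR, had the largest estimate of all members against APAP_HDF. It was at 1.08, 3.55 and 0.754 CPM in APAP, 10.8, 15.8 and 10.3 in APAP_MSC, and 0.236, 0.991 and 0.217 in APAP_HDF. APAP_MSC stood above both other groups with no overlap, and APAP and APAP_HDF overlapped. The gene rose by 2.80 ± 0.54 (log2, SE; edgeR adjusted p = 0.0218) against APAP and was higher by 4.65 ± 0.64 (0.00472) against APAP_HDF. The call against APAP was lost without APAP library 1 or APAP_MSC library 1, 2 or 3 (edgeR adjusted p = 0.0756, 0.0628, 0.0941 and 0.0508) and without library 1 of both APAP and APAP_HDF (0.0701). With no filter on low counts this call was lost as well (edgeR adjusted p = 0.0691).

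Cyp2c70, which forms muricholic acids, the bile acids typical of mice, had the smallest adjusted p of all members against APAP_HDF. Its levels were 161, 205 and 113 CPM in APAP, 374, 414 and 352 in APAP_MSC, and 68.8, 71.0 and 79.2 in APAP_HDF. The 3 groups formed 3 separate ranges, with APAP_HDF lowest. It rose by 1.25 ± 0.18 (log2, SE; edgeR adjusted p = 0.00566) against APAP and was higher by 2.38 ± 0.19 (0.000403) than in APAP_HDF. The difference of APAP_HDF from APAP was -1.13 ± 0.18 (edgeR adjusted p = 0.438), a value that was called by DESeq2 and by edgeR without APAP library 3. Of the 4 promoters shown, that of Cyp2c70 holds all 3 motifs in capitals.

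Cyp2c23, an arachidonic acid epoxygenase, was at 88.2, 96.3 and 87.1 CPM in APAP, 214, 188 and 175 in APAP_MSC, and 47.6, 89.0 and 92.5 in APAP_HDF. The APAP_MSC libraries lay at about the same distance above both other groups, which overlapped. It rose by 1.09 ± 0.21 (log2, SE; edgeR adjusted p = 0.0186) against APAP and was higher by 1.33 ± 0.21 (0.00569) than in APAP_HDF. The call against APAP was lost without APAP library 1 or APAP_MSC library 1 or 2 (edgeR adjusted p = 0.0621, 0.0643 and 0.0806).

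The cluster of Cyp2c67, Cyp2c68 and Cyp2c69, with the related Cyp2c40, contains genes higher in female than in male liver. Cyp2c69 was at 2.09, 2.63 and 2.32 CPM in APAP, 8.82, 8.42 and 6.20 in APAP_MSC, and 1.83, 4.79 and 4.94 in APAP_HDF. APAP_MSC lay above both other groups, and APAP lay between the lowest and the highest APAP_HDF library. The gene rose by 1.73 ± 0.32 (log2, SE; edgeR adjusted p = 0.0165) against APAP, whereas the difference of 1.02 ± 0.30 from APAP_HDF missed the threshold (0.0599). DESeq2 and limma-voom called the difference from APAP_HDF (adjusted p = 0.0145 and 0.0492). The call against APAP was lost without APAP library 1 or APAP_MSC library 1 or 2 (edgeR adjusted p = 0.0508, 0.0540 and 0.0785). Cyp2c69 counts were 2.39 to 3.30% of Cyp2c67 counts in APAP and 4.74 to 7.69% in APAP_MSC, and with the 3 copies summed the difference was 0.84 ± 0.37 (0.221), not called. Cyp2c67, Cyp2c68 and Cyp2c40 had estimates of 0.66 ± 0.40, 0.97 ± 0.37 and 1.25 ± 0.47 against APAP, with no overlap between the groups and none called in the fit of all 9 libraries. Without library 1 of both APAP and APAP_HDF, a fit chosen after seeing the data, Cyp2c68 was called at 0.83 ± 0.14 (edgeR adjusted p = 0.00993) and Cyp2c40 at 1.10 ± 0.23 (0.0258). Both were also called without APAP_HDF library 1 alone (0.00608 and 0.00929). With only the APAP and APAP_MSC groups fitted, Cyp2c67, Cyp2c68 and Cyp2c40 were all called (edgeR adjusted p = 0.0199, 0.0124 and 0.0158), and DESeq2 called Cyp2c68.

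**Figure D4:**
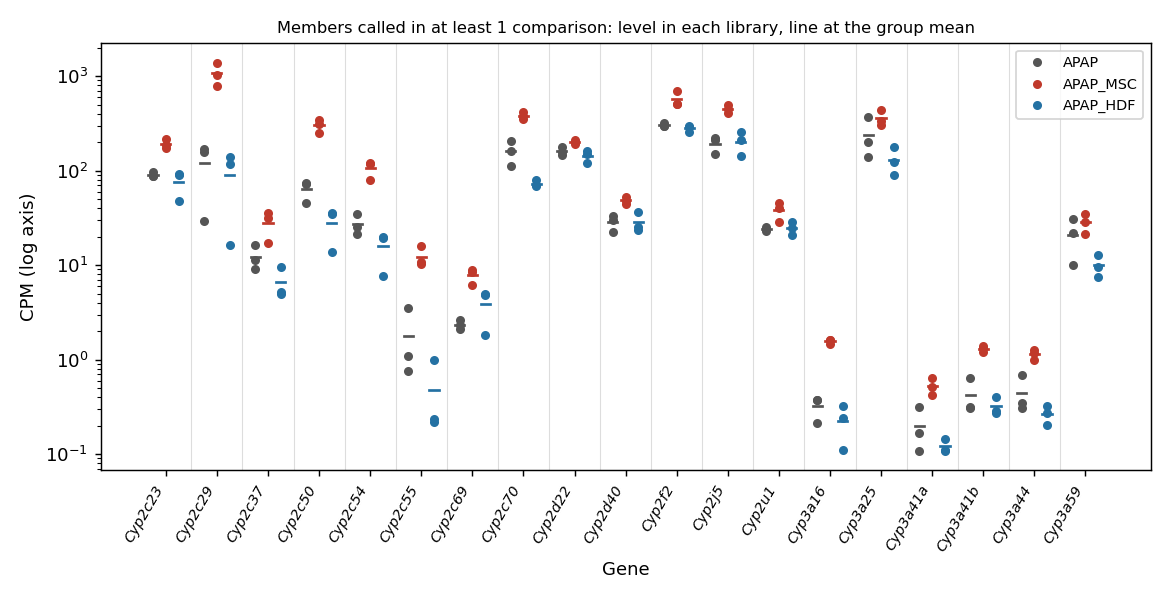
CPM in each library (log vertical axis) of the 19 genes called in at least 1 comparison (horizontal axis), with a short line at each group mean. In 13 of them APAP_MSC was called higher than APAP, and 6 of the genes, all of Cyp3a or Cyp2c, had at most 15.8 CPM in every library.

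In the Cyp3a subfamily, whose products oxidise many drugs and steroids, 3 rare members rose against APAP, and 2 abundant ones, Cyp3a25 and Cyp3a13, did not pass. The subfamily sum, without Cyp3a11, was 388, 535 and 293 CPM in APAP, 458, 627 and 537 in APAP_MSC, and 228, 352 and 302 in APAP_HDF. It did not pass against APAP (0.42 ± 0.22 log2, SE; edgeR adjusted p = 0.301). It was higher than in APAP_HDF by 0.88 ± 0.22 (edgeR adjusted p = 0.0360), a call lost without APAP_MSC library 1, 2 or 3 or APAP_HDF library 1 or 3 (0.0575, 0.144, 0.0778, 0.104 and 0.0817).

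Cyp3a25, the most abundant member of the subfamily, was at 202, 367 and 139 CPM in APAP, 306, 438 and 338 in APAP_MSC, and 90.5, 177 and 123 in APAP_HDF. APAP overlapped with both other groups, and APAP_MSC lay above APAP_HDF. Cyp3a59, its close copy, was at 21.7, 30.9 and 10.2 CPM in APAP, 21.3, 34.9 and 28.8 in APAP_MSC, and 9.52, 12.9 and 7.41 in APAP_HDF, with the same order of groups. Against APAP_HDF, Cyp3a25 was higher by 1.47 ± 0.36 (log2, SE; edgeR adjusted p = 0.0394) and Cyp3a59 by 1.51 ± 0.38 (0.0450), and against APAP neither passed (0.351 and 0.544). The call of Cyp3a25 was lost in 6 and that of Cyp3a59 in 7 of the 9 fits without 1 library, in both cases including those without APAP library 1, each APAP_MSC library, and APAP_HDF libraries 1 and 3, with adjusted p from 0.0562 to 0.134 and from 0.0659 to 0.144. Without library 1 of both APAP and APAP_HDF the edgeR adjusted p was 0.167 and 0.182. With no filter on low counts both calls were lost as well (edgeR adjusted p = 0.130 and 0.133). Cyp3a59 counts were 6.01 to 10.8% of Cyp3a25 counts over the 9 libraries, and the 2 genes summed were higher than in APAP_HDF by 1.47 ± 0.36 (0.0380). Cyp3a13, another abundant member, was at 164, 136 and 143 CPM in APAP and 126, 149.8 and 166 in APAP_MSC, which overlap.

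The other Cyp3a genes that were called are rare in these livers and are known as genes expressed mainly in female or newborn liver. Cyp3a16 was at 0.379, 0.373 and 0.211 CPM in APAP, 1.61, 1.47 and 1.62 in APAP_MSC, and 0.110, 0.244 and 0.326 in APAP_HDF, which is 7 to 92 counts a library. Cyp3a41b was at 0.307, 0.635 and 0.317 CPM in APAP, 1.33, 1.21 and 1.39 in APAP_MSC, and 0.283, 0.406 and 0.272 in APAP_HDF. Both were higher in every APAP_MSC library than in any other library. Cyp3a44 was at 0.307, 0.691 and 0.347 CPM in APAP, 1.16, 1.0 and 1.27 in APAP_MSC, and 0.205, 0.325 and 0.272 in APAP_HDF. Cyp3a41a was at 0.108, 0.317 and 0.166 CPM in APAP, 0.424, 0.642 and 0.511 in APAP_MSC, and 0.110, 0.146 and 0.109 in APAP_HDF, which is 6 to 34 counts a library. The APAP_MSC range was again separate from both others, which overlapped.

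Against APAP, Cyp3a16 rose by 2.31 ± 0.33 (log2, SE; edgeR adjusted p = 0.00560), Cyp3a41b by 1.66 ± 0.31 (0.0172) and Cyp3a44 by 1.37 ± 0.33 (0.0342), while Cyp3a41a, at 1.42 ± 0.41, did not pass (0.0615). Against APAP_HDF all 4 were called, Cyp3a16 at 2.80 ± 0.35, Cyp3a41b at 2.02 ± 0.33, Cyp3a44 at 2.10 ± 0.36 and Cyp3a41a at 2.09 ± 0.45 (edgeR adjusted p = 0.00166, 0.00545, 0.00699 and 0.0173). The call of Cyp3a41b against APAP was lost without APAP_MSC library 1, 2 or 3 (edgeR adjusted p = 0.0534, 0.0695 and 0.0508). The call of Cyp3a44 against APAP was lost without APAP library 1 or 3, APAP_MSC library 1, 2 or 3, or APAP_HDF library 2 (edgeR adjusted p = 0.0959, 0.0880, 0.0953, 0.102, 0.0963 and 0.0509), and without library 1 of both APAP and APAP_HDF (0.0745). It was also lost with the legacy deviances of edgeR (adjusted p = 0.0525). The call of Cyp3a41a against APAP_HDF was lost without APAP_MSC library 2 (edgeR adjusted p = 0.0838) or APAP_HDF library 1 (0.0537).

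These genes are close in sequence to Cyp3a11, whose counts were far above theirs. Cyp3a16 is the least alike and falls below the identity threshold for copies. Its coding identity to Cyp3a11 is 92.8%, and it shares 1.88% of its stretches of 75 bases. Cyp3a11 itself rose from 446, 813 and 502 CPM in APAP to 1804, 1722 and 1999.7 in APAP_MSC, a difference of 1.65 ± 0.24 (log2, SE; edgeR adjusted p = 0.00694), and was at 322, 528 and 359 in APAP_HDF. As a share of Cyp3a11 counts in the same library, Cyp3a41b was at 0.0688, 0.0781 and 0.0632% in APAP, 0.0737, 0.0702 and 0.0696% in APAP_MSC, and 0.0878, 0.0770 and 0.0756% in APAP_HDF. The share of Cyp3a41a ran from 0.0235 to 0.0390% over the 9 libraries, and for both Cyp3a41 genes the share in APAP and APAP_MSC overlapped. The share of Cyp3a44 was 0.0688 to 0.0850% in APAP, 0.0581 to 0.0645% in APAP_MSC and 0.0616 to 0.0756% in APAP_HDF, so that it was lower in every APAP_MSC library than in any APAP library. The share of Cyp3a16 ran from 0.0421 to 0.0850% in APAP, 0.0811 to 0.0890% in APAP_MSC and 0.0342 to 0.0907% in APAP_HDF, so that APAP_MSC overlapped with both other groups. Reads of Cyp3a11 assigned to its copies and transcripts of the copies themselves cannot be told apart in these counts. The increases of these genes are therefore uncertain.

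**Figure D5:**
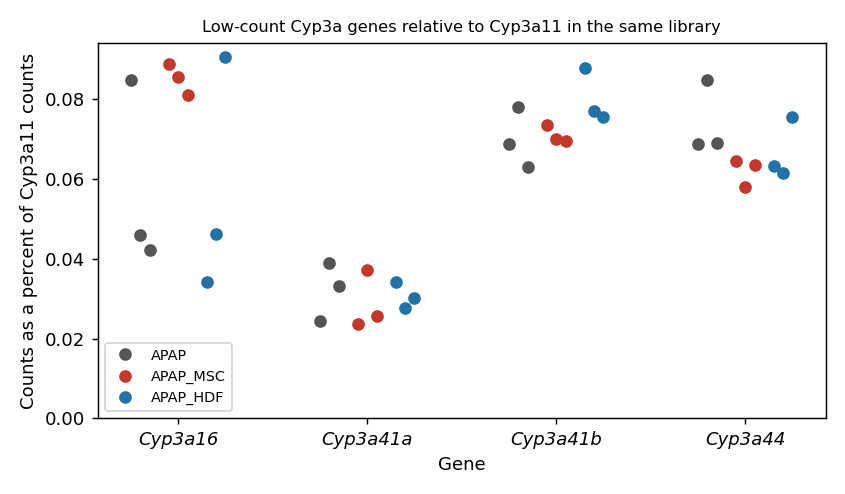
Counts of 4 rare Cyp3a genes (horizontal axis) as a percent of Cyp3a11 counts in the same library (vertical axis), with a point for each library of the 3 groups. The shares of Cyp3a16, Cyp3a41a and Cyp3a41b overlap between APAP and APAP_MSC and that of Cyp3a44 is lower in APAP_MSC. Cyp3a11 was 446 to 813 CPM in APAP and 1722 to 1999.7 CPM in APAP_MSC.

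Cyp2f2, known for the activation of naphthalene and expressed around the portal vein, was at 316, 294 and 295 CPM in APAP, 692, 503 and 508 in APAP_MSC, and 256, 294 and 293 in APAP_HDF. APAP and APAP_HDF overlapped narrowly at 294 CPM, and the lowest APAP_MSC library lay well above both. It rose by 0.91 ± 0.14 (log2, SE; edgeR adjusted p = 0.00673) against APAP and was higher by 1.02 ± 0.14 (0.00240) than in APAP_HDF.

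Cyp2j5, an arachidonic acid epoxygenase of liver and kidney, was at 149, 212 and 219 CPM in APAP, 444, 496 and 407 in APAP_MSC, and 141, 209 and 256 in APAP_HDF. APAP and APAP_HDF covered about the same range and APAP_MSC lay above it. The gene rose by 1.22 ± 0.21 (log2, SE; edgeR adjusted p = 0.0142) against APAP, a call lost without APAP_MSC library 2 (0.0681), and was higher by 1.15 ± 0.21 (0.00986) than in APAP_HDF. The other 3 Cyp2j genes, Cyp2j6, Cyp2j8 and Cyp2j9, had estimates from -0.37 to 0.24 against APAP and overlapped with it. Cyp2j6 was higher than in APAP_HDF by 0.43 ± 0.20 (edgeR adjusted p = 0.192), which was called without APAP library 1 (0.0324) and with only the 2 groups fitted (0.0180).

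Cyp2u1, which hydroxylates long-chain fatty acids, was at 22.9, 25.3 and 23.8 CPM in APAP, 45.1, 40.3 and 28.9 in APAP_MSC, and 28.4, 24.8 and 21.0 in APAP_HDF. APAP_MSC library 3 exceeded the highest APAP_HDF library by little, and APAP_MSC libraries 1 and 2 lay clear of both groups. The gene rose by 0.66 ± 0.16 (log2, SE; edgeR adjusted p = 0.0346) against APAP and was higher by 0.62 ± 0.16 (0.0344) than in APAP_HDF. The first call was lost without any 1 of the APAP libraries, APAP_MSC library 1 or 2, or APAP_HDF library 2, with edgeR adjusted p from 0.0535 to 0.143, and without library 1 of both APAP and APAP_HDF (0.0611). With limma-voom it was lost as well (adjusted p = 0.0510). The second was lost without APAP_MSC library 1 or 2 or APAP_HDF library 2 or 3, with adjusted p from 0.0859 to 0.137.

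Cyp2d genes made up the largest part of the summed level in the mean of every group, and few of them were called. In APAP_MSC library 2, Cyp2c held more of the sum than Cyp2d (35.7% against 33.3%). Cyp2d26, the most abundant member per kb of coding length, was at 904, 1065 and 1160.0 CPM in APAP, 1174, 1236 and 1313 in APAP_MSC, and 847, 1176 and 1297 in APAP_HDF. Its APAP_MSC range began just above the highest APAP library and overlapped with APAP_HDF, and its difference from APAP was 0.25 ± 0.16 (log2, SE; edgeR adjusted p = 0.395). Cyp2d9, a steroid hydroxylase higher in male liver, was at 484, 524 and 533 CPM in APAP, 645, 627 and 727 in APAP_MSC, and 549.7, 601 and 729 in APAP_HDF, so both injected groups lay above APAP. The differences of 0.38 ± 0.13 (edgeR adjusted p = 0.100) and 0.29 ± 0.13 (0.554) were not called, and the first was called without APAP_HDF library 1 (0.0466). DESeq2 also called the first (adjusted p = 0.0412). The Cyp2d sum differed by 0.30 ± 0.14 from APAP (edgeR adjusted p = 0.231) and by 0.17 ± 0.14 from APAP_HDF (0.489).

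The called differences in Cyp2d were small. Cyp2d40 was at 33.4, 22.3 and 30.4 CPM in APAP, 47.7, 44.3 and 53.2 in APAP_MSC, and 23.4, 25.6 and 36.4 in APAP_HDF, with APAP_MSC above both. It rose by 0.75 ± 0.18 (log2, SE; edgeR adjusted p = 0.0366) against APAP and was higher by 0.77 ± 0.18 (0.0276) than in APAP_HDF. The first call was lost without APAP library 2 or 3, any 1 of the APAP_MSC libraries, or APAP_HDF library 2, with edgeR adjusted p from 0.0521 to 0.106. The second was lost without any 1 of the APAP_MSC libraries or APAP_HDF library 1 or 2, with adjusted p from 0.0746 to 0.0880, and without library 1 of both APAP and APAP_HDF (0.0613). Cyp2d22 was at 157, 179 and 147 CPM in APAP, 192, 209 and 203 in APAP_MSC, and 120.2, 149 and 163 in APAP_HDF, again with APAP_MSC above both. Its difference from APAP_HDF, 0.48 ± 0.13, was called (edgeR adjusted p = 0.0362) and was lost without any 1 of the APAP_MSC libraries or APAP_HDF library 1 or 2, with adjusted p from 0.0740 to 0.137, and without library 1 of both APAP and APAP_HDF (0.0647). Its difference from APAP, 0.33 ± 0.12, was not called (edgeR adjusted p = 0.146). Cyp2d11, at 12.4, 13.4 and 14.9 CPM in APAP_MSC and 16.7, 15.5 and 17.1 in APAP_HDF, was the member with all APAP_MSC libraries below APAP_HDF, by -0.28 ± 0.11 (0.143).

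In the remaining subfamilies no member was called. Cyp2a12, which hydroxylates steroids and bile acids, was at 784, 752 and 652 CPM in APAP, 720.4, 698 and 729 in APAP_MSC, and 532, 623 and 680.5 in APAP_HDF. The difference of APAP_MSC from APAP was -0.03 ± 0.12 (log2, SE; edgeR adjusted p = 0.929), and it was 0.03 without library 1 of both APAP and APAP_HDF. Cyp2b10, the standard target gene of CAR, was at 1.66, 4.91 and 0.996 CPM in APAP, 5.26, 13.6 and 8.65 in APAP_MSC, and 1.45, 3.36 and 2.50 in APAP_HDF. APAP_MSC lay above both, by 1.89 ± 0.57 (edgeR adjusted p = 0.0850) and 1.91 ± 0.57 (0.0696), and DESeq2 and limma-voom called both differences. Cyp2a4, a steroid hydroxylase higher in female liver, was at 2.54, 9.50 and 2.43 CPM in APAP, 11.5, 15.8 and 18.3 in APAP_MSC, and 0.441, 8.11 and 11.3 in APAP_HDF. Its counts were 1.97 to 4.37% of those of its close copy Cyp2a5, which stood at 107, 316 and 116 CPM in APAP, 342, 363 and 552 in APAP_MSC, and 22.3, 211 and 296 in APAP_HDF.

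Cyp2r1, a vitamin D hydroxylase, was at 11.9, 11.2 and 11.1 CPM in APAP, 11.1, 14.6 and 12.7 in APAP_MSC, and 9.22, 12.1 and 9.62 in APAP_HDF, with all 3 groups overlapping. Cyp2s1, expressed mostly in epithelia outside liver, was at 0.487, 2.52 and 1.03 CPM in APAP, 0.295, 0.529 and 0.740 in APAP_MSC, and 0.378, 0.715 and 0.616 in APAP_HDF. Its estimate against APAP, -1.34 ± 0.56 (log2, SE; edgeR adjusted p = 0.184), was the lowest of all members, and the groups overlapped. Cyp2g1, an olfactory P450, was at 0, 0.168 and 0.272 CPM in APAP, 0.295, 0.340 and 0.458 in APAP_MSC, and 0.0944, 0.0975 and 0.398 in APAP_HDF, where the count of 0 allows up to 0.0541 CPM. Cyp2t4 was at 0.126, 0.0560 and 0.136 CPM in APAP, 0.129, 0.0567 and 0.211 in APAP_MSC, and 0.0787, 0.244 and 0.235 in APAP_HDF, a level of 3 to 15 counts a library.

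The remaining members were not called in any comparison of all 9 libraries. Cyp2c38, at 0.325, 1.61 and 2.78 CPM in APAP and 2.88, 5.70 and 6.20 in APAP_MSC, did not overlap between these groups but spread widely within them and within APAP_HDF (0.0787, 1.80 and 4.02). Cyp2d10 was at 411, 427 and 419 CPM in APAP and 489.5, 531 and 511 in APAP_MSC, a difference of 0.29 ± 0.11 (log2, SE; edgeR adjusted p = 0.135). Cyp2d34, at 0.667, 0.765 and 0.800 CPM in APAP and 1.70, 2.15 and 0.906 in APAP_HDF, was 1 of the 3 members higher in every APAP_HDF library than in any APAP library. The other members in this class are Cyp2a22, Cyp2d12, Cyp2j6, Cyp2j8, Cyp2j9, Cyp2b9 and Cyp3a57. Their estimates against APAP ran from -0.37 (Cyp2j9) to 0.50 (Cyp2b9). Cyp2b9, a gene of female liver, had 2, 0 and 20 counts in APAP, 9, 16 and 4 in APAP_MSC, and 0, 23 and 23 in APAP_HDF, which is the border of the count rule, as were Cyp3a57 with 0 to 20 counts and Cyp2t4.

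Members were also grouped by known regulation, to be read beside the 2.83% of all genes that rose against APAP and the 4.9% called higher than in APAP_HDF. Of 8 genes inducible through CAR or PXR (all members), 3 rose against APAP (Cyp2c50, Cyp2c54 and Cyp2c55), with a median of 1.92 against -0.01 over all genes, and 6 were called higher than in APAP_HDF. The same 8 had a median of -0.82 in APAP_HDF against APAP, where none passed the edgeR test and 4 had an unadjusted p under 0.05. Of 8 tested genes higher in female mouse liver, 4 rose against APAP (Cyp2c69, Cyp3a16, Cyp3a41b and Cyp3a44), with a median of 1.54. Against APAP_HDF, 4 were called higher (Cyp3a16, Cyp3a41a, Cyp3a41b and Cyp3a44). Of the 4 that rose, Cyp2c69 was not called against APAP with its copies summed (edgeR adjusted p = 0.221). In these counts, reads of Cyp3a41a, Cyp3a41b and Cyp3a44 may belong to Cyp3a11. Cyp3a16 is less alike, with 92.8% coding identity to Cyp3a11, and whether its reads belong there was not tested. Of 5 genes higher in male liver, which include Cyp7b1, Cyp4a12a and Cyp4a12b outside the members, 1 rose (Cyp2u1), with a median of 0.66, and that call was lost in 6 of the 9 fits without 1 library. Of 12 genes that oxidise arachidonic acid, 4 rose against APAP (Cyp2c50, Cyp2c54, Cyp2c55 and Cyp2j5), with a median of 1.23, and 6 were called higher than in APAP_HDF. The list names Cyp2c23 by its older symbol, Cyp2c44, which was not matched, so these counts leave out that epoxygenase, which was called in both comparisons. The groups share genes and count close copies, such as Cyp2c50 and Cyp2c54, separately, and none was tested as a group.

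Partners and regulators of the P450 enzymes were read from fixed lists, beside 2.83% of all genes that rose and 3.54% that fell. Of 14 genes for electron transfer and haem, 4 rose and 1 fell in APAP_MSC against APAP, with a median of 0.29. Cyb5a, the microsomal cytochrome b5, rose from 494 to 752 CPM (means, 0.60 ± 0.12 log2, SE; edgeR adjusted p = 0.0184), Alad and Ppox of haem synthesis rose by 0.78 ± 0.17 and 0.45 ± 0.12 (0.0224 and 0.0425), and Hmox1, which breaks down haem, fell by 1.32 ± 0.33 (0.0498). Por, the P450 reductase, stood at means of 377, 335 and 314 CPM in APAP, APAP_MSC and APAP_HDF, and its difference of -0.17 ± 0.18 from APAP was not called (edgeR adjusted p = 0.635). Of 26 transcription factors of P450 genes, 1 rose against APAP, a share near that of all genes: Cebpa, by 0.59 ± 0.15 (edgeR adjusted p = 0.0438). Nr1i3 and Nr1i2, which encode CAR and PXR, differed from APAP by 0.15 ± 0.36 and 0.09 ± 0.19 (0.860 and 0.835). Cyp2e1, the third excluded gene, was at 514, 699 and 637 CPM in APAP, 647, 1146 and 1158 in APAP_MSC, and 399, 644 and 935 in APAP_HDF, which overlap.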

How the data were processed

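RNA was taken with TRIZOL and libraries were made with a Tecan universal plus mRNA-seq kit, per the labels' protocols. The authors deposited a table of raw counts per gene symbol and a table of normalized counts, a signal scaled for library size. HISAT2, Subread, DESeq2 and the builds mm39 and GRCm39 are named per the submitters' processing notes, with versions not given in the sources used here. The raw counts were tested with edgeR 4.0.16 in R 4.3.3: TMM scaling, its filter on low counts (17582 genes, 99.97% of counts kept), a quasi-likelihood fit with robust moderation on all 9 libraries by group, two-sided, with Benjamini-Hochberg adjustment over all genes tested. Fold changes are log2 with standard errors from the F statistic. The fits were also run on simulated counts that held no outlying library. That run therefore cannot show how the calls behave with libraries that stand apart, as they do here. DESeq2 1.42.0, limma 3.58.1 (voom), other scalings, other filters, the 2 groups alone, no robust moderation and each library left out were tried as alternatives. Legacy deviances, leaving out library 1 of both APAP and APAP_HDF, and summing near-identical copies were chosen after seeing the data. Column headers carry a group but no replicate number, so libraries are named by column order. The 24 symbols that occur more than once stayed separate entries.

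Members, gene lists and markers were chosen with earlier results of these data known. Values in every library are given for members called in any comparison, the most abundant member of each subfamily and genes of the fixed lists where described. A planned comparison of proteins was not made, and coding sequences of GENCODE M21 were compared instead. Coding lengths come from the same transcripts.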

Additional observations from a re-analysis of the deposited data

How the results depend on the processing

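With 3 libraries a group, many calls were lost when 1 library was left out, and the fewest members were called without APAP_MSC library 2. Left out 1 library at a time, the members called numbered 3 to 17 in APAP_MSC against APAP, 0 to 1 in APAP_HDF against APAP and 11 to 18 in APAP_MSC against APAP_HDF, and all genes called numbered 97 to 1753, 0 to 32 and 361 to 1793. DESeq2 called 18, 2 and 20 members and 2050, 83 and 2531 genes, against 13, 0 and 18 members and 1121, 0 and 1563 genes with edgeR. Without a filter on low counts, 11 and 15 members were called in the 2 comparisons with APAP_MSC. Over the named members, all alternatives and all 3 comparisons, 90 calls were lost, 24 were gained and 27 estimates changed sign, and over the subfamily sums 11, 8 and 17. The cause was not tested.

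None of the changes of sign was in a called difference. In APAP_MSC against APAP, Cyp2a12 was 0.0348 and the Cyp2a sum 0.0546 (log2) without library 1 of both APAP and APAP_HDF, and the Cyp2a sum was 0.00302 with size factors of the DESeq2 type and with DESeq2 and 0.0108 with no filter. In APAP_HDF against APAP, Cyp2b10 was 0.24 with limma-voom and 0.0434 without those libraries 1, Cyp2d40 was 0.24 and Cyp2u1 -0.10 without them, and the Cyp2j sum was -0.0197 with limma-voom. Leaving out 1 library moved the Cyp2a sum from -0.0782 to 0.0663, Cyp2a12 from -0.10 to 0.0465 and Cyp2t4 from -0.19 to 0.66 in APAP_MSC against APAP, and Cyp2s1 from -0.44 to 0.17 in APAP_MSC against APAP_HDF. In APAP_HDF against APAP it moved the Cyp2b sum from -0.30 to 0.86, Cyp2b10 from -0.44 to 0.88, Cyp2c23 from -0.41 to 0.00011, Cyp2c29 from -0.85 to 0.10, Cyp2d26 from -0.0447 to 0.24, Cyp2d40 from -0.23 to 0.11, Cyp2g1 from -0.66 to 1.17, the Cyp2j sum from -0.18 to 0.19, Cyp2j5 from -0.14 to 0.26, Cyp2u1 from -0.0744 to 0.15 and Cyp3a41b from -0.57 to 0.0389.

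No paired analysis was possible because the columns of the count table carry no replicate numbers. Depth limits Cyp2b9, Cyp2g1, Cyp2j8, Cyp2t4 and Cyp3a57, which had counts near the floor of 3 in some libraries. It also limits Cyp3a41a, called against APAP_HDF, with 6, 17 and 11 counts in APAP and 7, 9 and 6 in APAP_HDF. Cyp2c38 and Cyp3a16 had 5 and 7 counts in APAP_HDF library 1.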

Other observations

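Of 29 tested P450 genes of families other than 2 and 3, 4 rose and 1 fell in APAP_MSC against APAP, beside 2.83% and 3.54% of all genes, with a median of 0.03 (log2). The share that fell was near that of all genes. Cyp7a1, which starts the classic route of bile acid synthesis, rose from a mean of 2.61 to 21.4 CPM (3.05 ± 0.34, SE; edgeR adjusted p = 0.00340) and was at 0.969 CPM in APAP_HDF. Cyp8b1, which directs synthesis towards cholic acid, and Cyp27a1, a sterol hydroxylase, rose by 2.05 ± 0.48 and 0.85 ± 0.12 (edgeR adjusted p = 0.0443 and 0.00515). Cyp4f14, a fatty acid hydroxylase, rose from 58.9 to 197 CPM (1.74 ± 0.32; edgeR adjusted p = 0.0196), and Cyp4b1 fell from 14.0 to 6.56 CPM, by 1.09 ± 0.26 (0.0360).

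Against APAP_HDF, 6 of the 29 were higher and 5 lower in APAP_MSC, beside 4.9% and 3.99% of all genes. Cyp1a2, a pericentral enzyme that oxidises aromatic amines, was at a mean of 494 CPM in APAP_MSC and 39.4 in APAP_HDF (3.65 ± 0.73; edgeR adjusted p = 0.0219). Cyp26a1, which breaks down retinoic acid, was higher by 3.41 ± 0.64 (edgeR adjusted p = 0.0148). Cyp4a10, a fatty acid hydroxylase, was lower, at -0.96 ± 0.23 (edgeR adjusted p = 0.0304), as were Cyp4a31, Cyp4a32, Cyp4b1 and Cyp39a1. Dbp, a clock factor that drives P450 genes, was the 1 of 26 transcription factors called in this comparison, a share near that of all genes, and was higher by 1.95 ± 0.35 (edgeR adjusted p = 0.00922).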
